A study of Danio rerio with 4 samples.

Results

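Translation initiation and elongation factor genes were followed in endothelial cells of the posterior cardinal vein, which drains the trunk of the zebrafish embryo. Ventral cells were compared with dorsal cells at 24 hours post fertilization. A gene was a member if its symbol started with eif or eef followed by a digit and it had at least 10 counts summed over the 4 libraries. The eIF2 kinases (eif2ak) and symbols starting with eef2k were left out. Of 32434 gene rows, 72 carried such a symbol and 52 were members, with 4 genes of the eif1 class, 9 of eif2, 13 of eif3, 16 of eif4, 4 of eif5, 1 of eif6 and 5 of eef1. The eef2 class had no member. Its rows eef2a.1, EEF2 and eef2a.2 gave 8, 7 and 0 counts, and eef2b matched no row by symbol and was not analysed here. Of the other non-member rows, 7 had no count, and those with a count ran from 2, as for EIF3E, to 8 for EIF4A2. The members nearest above the limit were EEF1AKMT1 with 10 counts and EIF2B3 and EIF4G3 (ENSDARG00000074331) with 12 each.

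All embryos carried the transgenes Tg(fli1:gal4;uasKaede), in which the fli1 promoter drives Kaede, whose green fluorescence becomes red under light. Red cells were sorted after light was applied to either side of the vein, with 6 embryos pooled per group, and 2 libraries stood for each side. Since no label says that the libraries of a side came from separate pools, the p-values reflect the scatter of these 4 libraries, part of which may be technical. RNA was read by CEL-Seq, which tags the 3' end of each transcript, so levels were not divided by gene length.

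Initiation factors bring the small ribosomal subunit and the initiator tRNA to the start codon of a messenger RNA, and elongation factors then deliver each further tRNA and move the ribosome along. The cap-binding group eIF4 recruits the messenger, the many-subunit eIF3 holds the small subunit open for it, eIF2 carries the initiator tRNA, eIF1 and eIF1A watch over start codon choice, and eIF5 and eIF5B complete the joining of the large subunit. Their messages are made in every growing cell, so in a sorted pool they report on all cells in the tube and not on endothelial cells alone. In such a pool, fewer cells of a type and less RNA per cell cannot be told apart.

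Gene counts per library ran from 51376 to 115876, with the fewest in dorsal library 2, and gene counts per spike-in count ran from 4.68 in that library to 12.5 in dorsal library 1. The 24 endothelial marker symbols matched 14 rows, all with a count and 9 with at least 10 counts. Their sum was 1773 and 1847 scaled CPM ventral against 429 and 725 dorsal. The 4 tested endothelial markers met edgeR's filter on low counts only with their ventral counts, so their directions were not counted. None had an adjusted p under 0.05. The lowest edgeR adjusted p was 0.119, that of stab2, with 33 and 30 ventral against 1 and 6 dorsal counts. Scaled CPM are counts per 1000000 counts of the tested genes after TMM scaling, and libraries 1 and 2 of a side are always given in that order. The junction gene cdh5 gave only 2 and 1 ventral against 4 and 0 dorsal counts. Erythroid markers below the counting ceiling summed to 5413 and 4942 ventral against 6453 and 5931 dorsal scaled CPM, more than the endothelial sum in every library. That sum leaves out the globin genes hbae1.1, hbae3 and hbbe3, which lay near the ceiling in every library. With these globin genes the erythroid sum was 41007 and 52406 ventral against 37678 and 84998 dorsal scaled CPM. Epidermal markers summed to 4072 and 1484 ventral against 735 and 1208 dorsal scaled CPM, with krt4 counted in ventral library 1 alone, 58 times. Of 4 tested ones 3 lay above 0 and none passed. Among them krt18a.1 met the filter only with its ventral counts and icn only with its dorsal ones. The keratin gene krt8 gave 86 and 38 ventral against 23 and 9 dorsal counts, and krt18a.1 gave 69 and 31 against 21 and 4. Their log2 folds were 1.76 and 1.87 (edgeR adjusted p = 0.061 and 0.098), beside 0.078 for epcam and -0.59 for icn. Of 20 lyz counts, a myeloid marker, 17 fell in dorsal library 2. The part of these cell types in the values of translation factor genes was not tested.

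The 52 members together gave 2708 and 2128 ventral counts against 3216 and 1381 dorsal counts. That was 2.50% and 2.68% of ventral gene counts and 2.78% and 2.69% of dorsal gene counts. On the scaled level the sum was 32596 ± 1420 CPM in ventral and 34951 ± 2988 CPM in dorsal libraries (SD, n = 2 libraries each), a ratio of 0.933. The sides overlapped, since ventral library 2 (33601) lay above dorsal library 1 (32838). The log2 ratio of the sums was -0.10, and it turned to 0.028 without dorsal library 2 and to 0.19 with library sizes taken from the spike-ins. Its sign therefore rested on 1 library and on the scaling.

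No member differed between the sides past the threshold. edgeR's filter on low counts kept 35 of the 52 members and 1399 genes in all, and 0 of the 35 were higher or lower at an adjusted p of 0.05 (Benjamini-Hochberg over all tested genes, quasi-likelihood F test, 2-sided). Over all tested genes that test called 0.429% higher and 0.0% lower in ventral. At an unadjusted p under 0.05 edgeR had 0 of the 35 members against 12.2% of all tested genes in either direction, DESeq2 had 0 of 52 members against 0.462% of all genes, and limma voom had 1 of 35, EIF3G, lower in ventral, against 12.7%. After adjustment DESeq2 and limma voom called 0.0% of all genes, so their count of 0 members says nothing about the set. The lowest adjusted p of a member in edgeR was 0.504, that of EIF1B.

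Log2 folds of the tested members ran from -0.71 for EIF3K to 0.74 for EIF4EBP2, with a median of -0.10 against -0.033 over all tested genes. Of the 35 members 22 lay below 0, which is 62.9%, beside 53.9% of all tested genes. The ventral pair lay wholly above the dorsal pair in 4 tested members, against 19.7% of tested genes, and wholly below it in 8, against 21.2%. The 4 that lay above are 11.4% and the 8 that lay below are 22.9% of the tested members. For 20 of the 35 members the whole 95% interval of the difference lay within 2-fold either way, against 28.5% of all tested genes. The members were the deeper counted, with a median of 165 counts over the 4 libraries against 68 for all tested genes, and their median standard error was 0.27 against 0.42 on the log2 scale. The remaining 17 members had 10 to 28 counts each, and for these a change of 2-fold in at least 1 direction was inside the 95% interval in the fit without a filter.

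**Figure D1:**
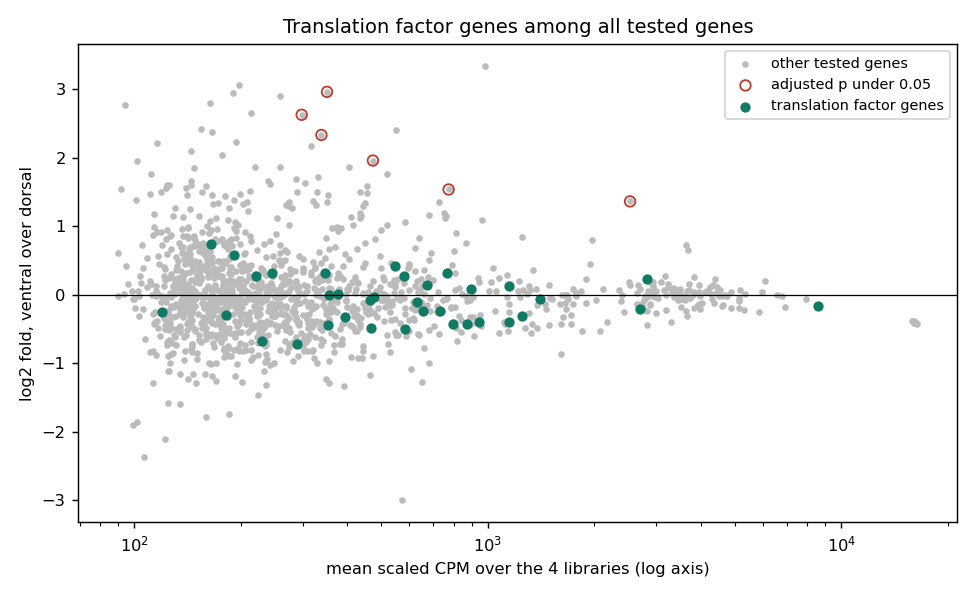
Each point is 1 of the 1399 tested genes, with its mean scaled CPM over the 4 libraries on a log axis and its log2 fold of ventral over dorsal from edgeR. The 35 tested translation factor genes, in green, lie between -0.71 and 0.74, and none is among the 6 circled genes with an adjusted p under 0.05.

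Elongation factor 1 transcripts were the most abundant of the set. The eef1 class took 38.7% and 39.2% of the members' ventral counts against 33.6% and 41.4% of their dorsal counts. Most of that came from eef1a1l1 (ENSDARG00000020850), which encodes eEF1A, the GTPase that brings aminoacyl-tRNA to the ribosome. It gave 643 and 549 ventral against 699 and 412 dorsal counts and ranked 10 among all genes by summed counts. No gene exceeded 1024 counts, the number of distinct identifiers of 5 bases. If the counts are of distinct identifiers, which the sources do not state, a correction for repeats gave 1012 and 787 ventral against 1175 and 527 dorsal. On the scaled level eef1a1l1 stood at 7501 and 8669 ventral against 7137 and 11057 dorsal CPM. The dorsal libraries lay on either side of the ventral ones. The log2 fold was -0.16 ± 0.24 (SE; edgeR adjusted p = 0.897), with 0.22 ± 0.14 without dorsal library 2 and -0.45 ± 0.15 without dorsal library 1.

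The exchange factor that reloads eEF1A with GTP was represented by EEF1G, EEF1B2 and EEF1D, its gamma, beta and delta subunits. EEF1G (ENSDARG00000056119) stood at 3150 and 2905 ventral against 2440 and 2764 dorsal CPM. Its ventral libraries lay above its dorsal ones, at a log2 fold of 0.23 ± 0.15 (SE; edgeR adjusted p = 0.647) and an interval from 0.932 to 1.48 in fold. EEF1B2 stood at 1213 and 1168 ventral against 1001 and 1208 dorsal CPM, and its sides overlapped. EEF1D was lower in level, at 303 and 426 ventral against 419 and 268 dorsal CPM, and its log2 fold of -0.0012 ± 0.30 was the nearest to 0 of the tested members. EEF1AKMT1, a methyltransferase that acts on a lysine of eEF1A and entered by its symbol, gave 5 and 1 ventral against 2 and 2 dorsal counts. Other eEF1A rows were nearly empty, with 2 counts for an EEF1A1 row (ENSDARG00000039502) and 0 for eef1a2, eef1a1l3 and a second EEF1A1 row (ENSDARG00000069951).

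**Figure D2:**
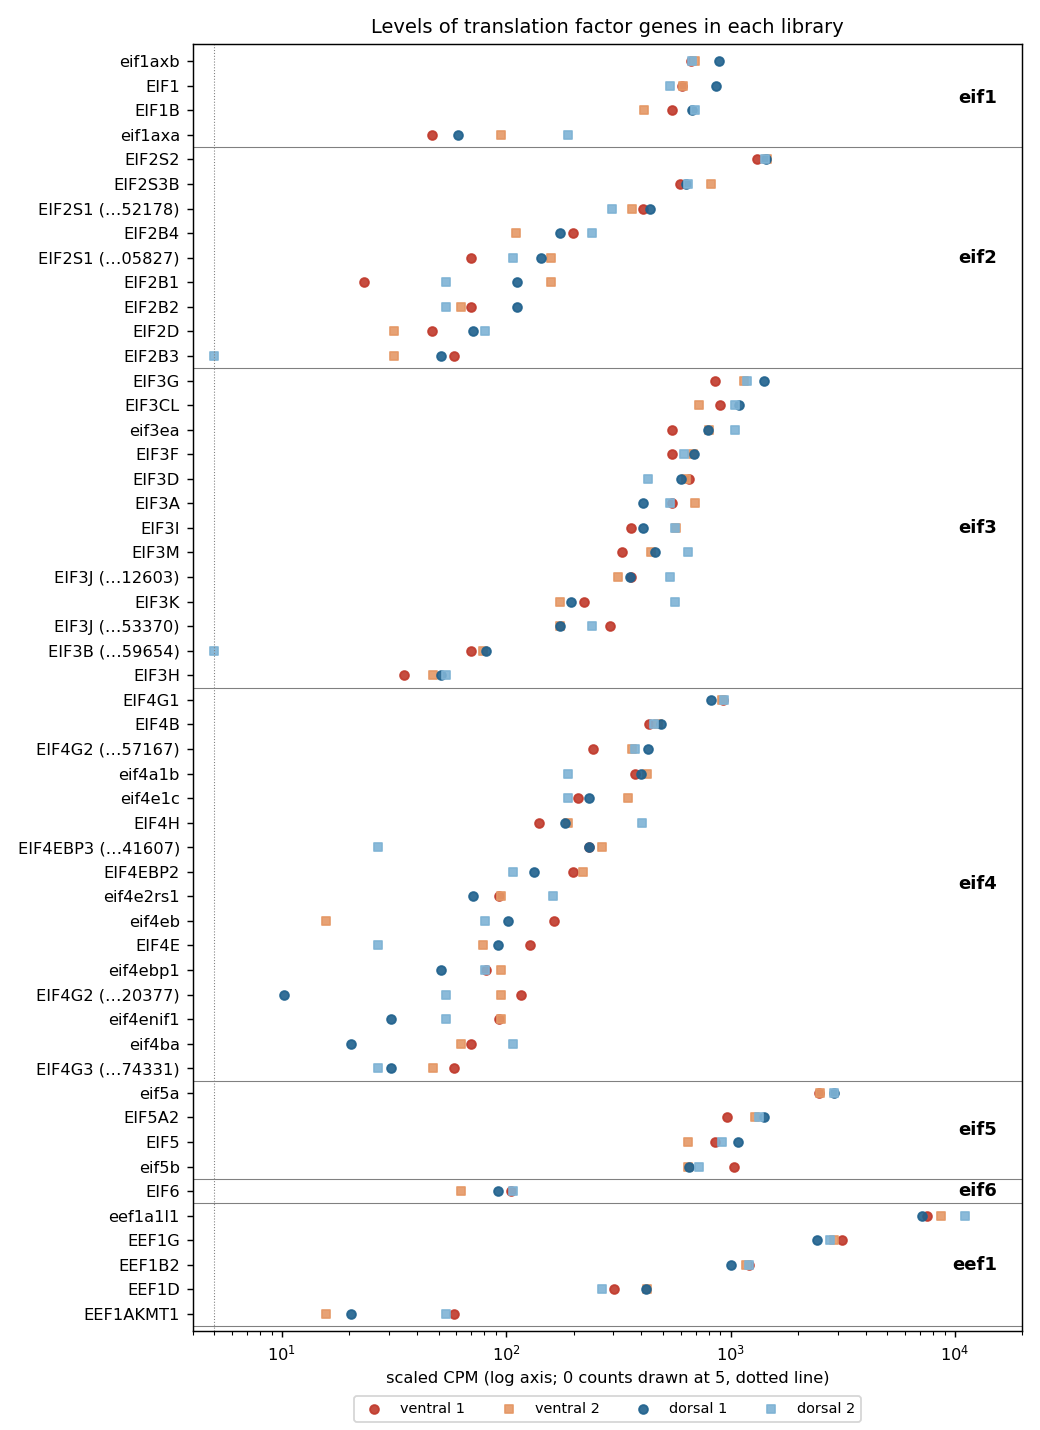
Scaled CPM of all 52 members on a log axis, by class, with 1 point for each of the 4 libraries and with libraries at 0 counts drawn at 5. The level runs from eef1a1l1, at 7137 to 11057, down to members such as EEF1AKMT1, at 15.8 to 58.3. Ventral and dorsal points overlap in 34 of the 52 rows, and in 23 of the 35 tested ones. Over all tested genes the ventral pair lies wholly above in 19.7% and wholly below in 21.2%.

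Among the gatekeepers of start codon choice, all 4 members had a log2 fold below 0 in the fit without a filter, against 47.2% of all its genes, and none passed. That share includes genes with too few counts to be members. In the filtered test 3 of 3 tested members of the class lay below 0, against 53.9% of tested genes. EIF1, which keeps the scanning ribosome open until a start codon is met, stood at 607 and 616 ventral against 858 and 537 dorsal CPM. Its dorsal libraries enclosed the ventral ones. Its paralogue EIF1B (ENSDARG00000029445) stood at 548 and 411 ventral against 674 and 698 dorsal CPM. Both ventral libraries of EIF1B were the lower ones, with a log2 fold of -0.50 ± 0.26 (SE; edgeR adjusted p = 0.504), the smallest unadjusted p of any tested member. The eIF1A gene eif1axb stood at 665 and 695 ventral against 888 and 671 dorsal CPM, so only dorsal library 1 stood apart. The class sum was 1841 ± 35.9 CPM in ventral and 2287 ± 274 CPM in dorsal libraries (SD, n = 2), a ratio of 0.805. Its log2 ratio was -0.31, and -0.39 to -0.13 over all other scalings and left-out libraries.

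The eIF2 complex, whose alpha, beta and gamma subunits carry the initiator tRNA, overlapped between the sides in each subunit. EIF2S2 (ENSDARG00000053047), the beta subunit, stood at 1307 and 1453 ventral against 1440 and 1422 dorsal CPM. Its log2 fold was -0.057 ± 0.17 (SE; edgeR adjusted p = 0.985), an interval of 0.739 to 1.25 in fold. The gamma subunit EIF2S3B stood at 595 and 821 ventral against 633 and 644 dorsal CPM, with the dorsal pair between the ventral ones. The alpha subunit, whose phosphorylation slows initiation under stress, came from 2 rows named EIF2S1. The larger, ENSDARG00000052178, stood at 408 and 363 ventral against 439 and 295 dorsal CPM. Beta was thus counted at more than gamma and alpha in every library, as transcript tags and not as protein. The eIF2B genes, which recharge eIF2, were scarce. EIF2B4, with the most counts of them, gave 17 and 7 ventral against 17 and 9 dorsal counts, and EIF2B1 gave 2 and 10 ventral against 11 and 2 dorsal counts. Its libraries thus differed more within a side than between the sides. EIF2D, a factor of non-canonical initiation, gave 4 and 2 ventral against 7 and 3 dorsal counts.

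The 13 genes of eIF3, the scaffold between the small subunit and the messenger, took 18.1% and 19.3% of the members' ventral counts against 20.5% and 20.1% of their dorsal counts. Their sum was 6103 ± 547 CPM in ventral and 7090 ± 525 CPM in dorsal libraries (SD, n = 2), a ratio of 0.861, with both ventral libraries below both dorsal ones. The log2 ratio of -0.22 turned to 0.062 with spike-in library sizes. Of 11 tested members 8 had a log2 fold below 0, beside 53.9% of all tested genes, and none passed. Their median was -0.33, against -0.033 over all tested genes. The subunits ranged widely in level, from 13 counts in all for EIF3H to 328 for EIF3G.

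EIF3G (ENSDARG00000016889), an RNA-binding subunit, stood at 852 and 1153 ventral against 1409 and 1181 dorsal CPM. EIF3CL (ENSDARG00000016443), a symbol for the core subunit c, stood at 898 and 726 ventral against 1093 and 1047 dorsal CPM. In both genes the ventral libraries were the lower pair. Their log2 folds were -0.39 ± 0.21 and -0.39 ± 0.20 (SE), with adjusted p of 0.529 and 0.514 in edgeR's test. The core subunit gene eif3ea stood at 548 and 805 ventral against 796 and 1047 dorsal CPM, and EIF3M at 327 and 442 against 459 and 644 CPM. The sides touched in eif3ea, where ventral library 2 lay just above dorsal library 1, and were apart in EIF3M. Their log2 folds were -0.43 ± 0.26 and -0.49 ± 0.31 (SE), with adjusted p of 0.611 and 0.639 in edgeR's test.

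Subunits a and d had values on the other side of 0. EIF3A (ENSDARG00000076815), the largest subunit and the backbone of the complex, stood at 548 and 695 ventral against 408 and 537 dorsal CPM, with a log2 fold of 0.43 ± 0.28 (SE; edgeR adjusted p = 0.647). EIF3D, a subunit that can bind the cap of some messengers, stood at 653 and 632 ventral against 602 and 429 dorsal CPM, with a log2 fold of 0.27 ± 0.26 (SE; edgeR adjusted p = 0.805). Both genes had their ventral libraries above the dorsal ones. EIF3F stood at 548 and 679 ventral against 684 and 617 dorsal CPM, and EIF3I at 362 and 568 ventral against 408 and 564 dorsal CPM, and both overlapped.

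EIF3K, a peripheral subunit, depended on 1 library. It gave 19 and 11 ventral against 19 and 21 dorsal counts, although dorsal library 2 was the shallowest. On the scaled level that was 222 and 174 ventral against 194 and 564 dorsal CPM. Dorsal library 1 read 0.344 times dorsal library 2, with a counting interval of 0.175 to 0.673, so the dorsal libraries differed beyond counting error. The 95% counting intervals cover counting error only. The log2 fold of -0.71 ± 0.51 (SE; edgeR adjusted p = 0.703) became -1.48 ± 0.42 without dorsal library 1, at an adjusted p of 0.143, which was the lowest of any member in any setting.

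**Figure D3:**
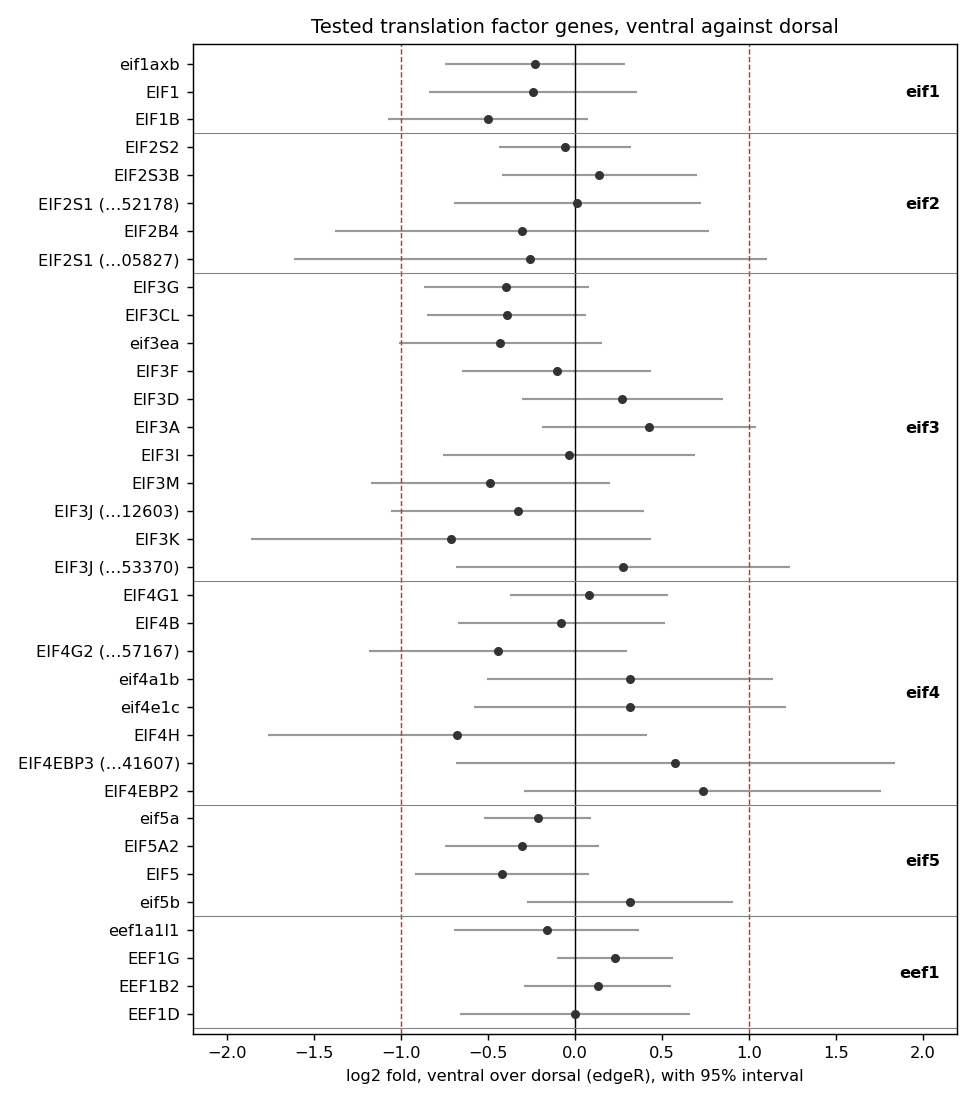
Log2 fold of ventral over dorsal for the 35 tested members from edgeR, with 95% intervals as lines, grouped by class, and with dashed lines at 2-fold either way. Every interval crosses 0, and 20 lie wholly between the dashed lines.

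The eif4 class had a higher ventral sum, at 3674 ± 164 CPM in ventral and 3302 ± 38.5 CPM in dorsal libraries (SD, n = 2), a ratio of 1.11 with both ventral libraries above. The log2 ratio of these sums was 0.15, and 0.14 to 0.39 over all other scalings and left-out libraries. Every one of these sums holds genes, named below, that were members only through their ventral counts. Their direction is thus partly drawn from the rule of membership. It is no support for a difference between the sides. The class holds inhibitors as well as initiation factors. The eIF4E-binding protein genes, which are inhibitors, summed to a mean of 549 CPM ventral against 317 dorsal, and eif4enif1 stood at 94.0 against 42.2. Of the other parts, eIF4G summed to 1381 against 1341, eIF4A to 400 against 293 and eIF4E to 566 against 478. The eIF4B and eIF4H genes went the other way, at 684 against 830. The eIF4G sum holds the smaller EIF4G2 copy, at a mean of 106 CPM ventral against 31.9 dorsal. That copy was a member only through its ventral counts, so the direction of the eIF4G sum was not counted. In the filtered test 3 of 8 eif4 members lay below 0, against 53.9% of tested genes, and none passed. Of these 8, EIF4EBP2 and EIF4EBP3 met the filter only with their ventral counts, so this share is no support for a direction. The other eif4 members were too scarce for that test. Among them the smaller EIF4G2 copy had 16 ventral and 3 dorsal counts, eif4enif1 14 and 5, eif4ebp1 13 and 8, and eif4ba 10 and 6. These were members only through their ventral counts, so their directions were not counted. EIF4G1 (ENSDARG00000006200), the scaffold that links the cap to the ribosome, had the most counts of the class. It stood at 922 and 916 ventral against 817 and 939 dorsal CPM, with a log2 fold of 0.081 ± 0.20 (SE; edgeR adjusted p = 0.971). The helicase eif4a1b, which unwinds the messenger's leader, stood at 373 and 426 ventral against 398 and 188 dorsal CPM, so that dorsal library 2 alone was low. Its cofactor EIF4B stood at 432 and 474 ventral against 490 and 456 dorsal CPM with a 95% interval of 0.626 to 1.43 in fold. The second cofactor EIF4H stood at 140 and 189 ventral against 184 and 403 dorsal CPM, with dorsal library 2 high.

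Cap-binding proteins and their inhibitors were less abundant. The main eIF4E gene in these libraries was eif4e1c, at 210 and 347 ventral against 235 and 188 dorsal CPM. EIF4E gave 11 and 5 ventral against 9 and 1 dorsal counts, eif4eb 14 and 1 ventral against 10 and 3 dorsal counts, and the eIF4E2-related eif4e2rs1 8 and 6 ventral against 7 and 6 dorsal counts. For eif4eb, ventral library 1 read 10.3 times ventral library 2, with a counting interval of 1.57 to 437. The sides of each of these genes overlapped.

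The 3 member genes of eIF4E-binding proteins block the cap-binding protein until growth signals release it. In the fit without a filter the 2 genes counted, EIF4EBP2 and EIF4EBP3, had a log2 fold above 0, against 52.8% of all its genes, and neither passed. That share includes genes with too few counts to be members. The direction of eif4ebp1 was not counted, since it was a member only through its ventral counts. The filtered test kept 2 of the 3, EIF4EBP2 and EIF4EBP3. Their dorsal counts alone, with 4 and 1 in dorsal library 2, did not meet its filter. They passed it only with their ventral counts, so their directions in that test were not counted. EIF4EBP2 (ENSDARG00000031819) gave 17 and 14 ventral against 13 and 4 dorsal counts, or 198 and 221 ventral against 133 and 107 dorsal CPM. Its ventral libraries lay above its dorsal ones, at a log2 fold of 0.74 ± 0.46 (SE; edgeR adjusted p = 0.631), the largest of the tested members. EIF4EBP3 (ENSDARG00000041607) gave 20 and 17 ventral against 23 and 1 dorsal counts. Dorsal library 1 matched the ventral libraries on the scaled level, at 235 against 233 and 268 CPM, and dorsal library 2 was low at 26.8 CPM. Its log2 fold was 0.58 ± 0.56 (SE; edgeR adjusted p = 0.805) and became 3.13 ± 0.91 without dorsal library 1, at an adjusted p of 0.162. The gene eif4ebp1 gave 7 and 6 ventral against 5 and 3 dorsal counts. The 3 inhibitor genes together, eif4ebp1 included, stood at 513 and 584 ventral against 419 and 215 dorsal CPM. The gene eif4enif1, which carries eIF4E into the nucleus, gave 8 and 6 ventral against 3 and 2 dorsal counts. It too was a member only through its ventral counts, so its direction was not counted.

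Factors of subunit joining and of the eIF5A family made up the eif5 class, with a sum of 5206 ± 194 CPM in ventral and 5951 ± 104 CPM in dorsal libraries (SD, n = 2), a ratio of 0.875. The log2 ratio of -0.19 turned to 0.046 with spike-in library sizes. The hypusine-carrying factor eif5a (ENSDARG00000017235), which helps ribosomes through difficult stretches, was the most tightly measured member. It stood at 2485 and 2495 ventral against 2879 and 2899 dorsal CPM. Its ventral libraries were the lower pair, at a log2 fold of -0.21 ± 0.14 (SE; edgeR adjusted p = 0.647), and the 95% interval ran from 0.696 to 1.07 in fold. EIF5A2 (ENSDARG00000056186) stood at 968 and 1279 ventral against 1409 and 1342 dorsal CPM, with a log2 fold of -0.30 ± 0.20 (SE; edgeR adjusted p = 0.649).

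EIF5 (ENSDARG00000003681), which triggers GTP hydrolysis on eIF2 at the start codon, stood at 852 and 647 ventral against 1082 and 913 dorsal CPM. Its ventral libraries were both lower, at a log2 fold of -0.42 ± 0.22 (SE; edgeR adjusted p = 0.524). The joining GTPase eif5b stood at 1038 and 647 ventral against 653 and 725 dorsal CPM, with ventral library 1 alone high. Ventral library 1 read 1.60 times ventral library 2 in eif5b, with a counting interval of 1.1 to 2.38. EIF6, which keeps free large subunits apart from small ones, gave 9 and 4 counts on each side.

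**Figure D4:**
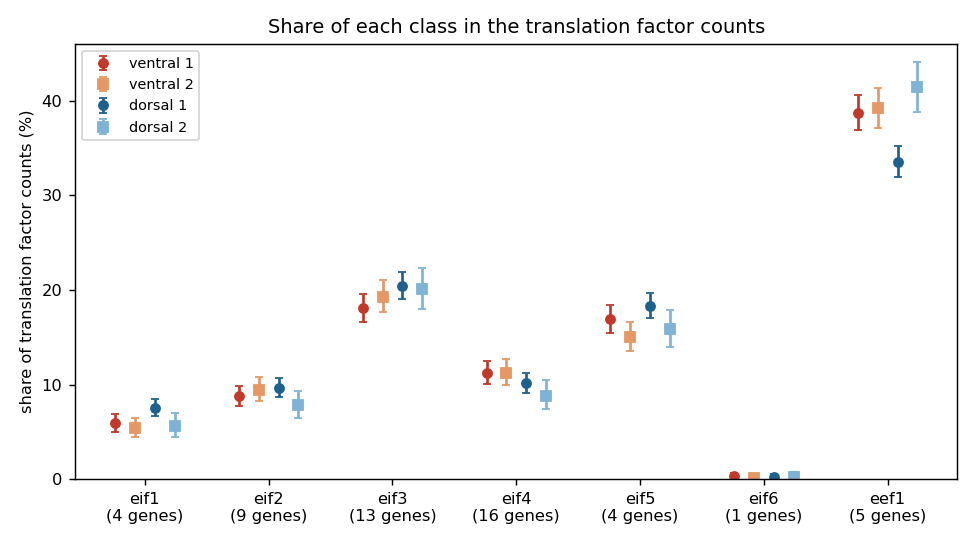
Share of each class in the counts of all 52 members, in percent, for each of the 4 libraries, with 95% Clopper-Pearson intervals. The eef1 class holds 33.6% to 41.4%, and the dorsal libraries stand farthest apart there. The eif4 class lies at 11.3% in both ventral libraries and at 10.1% and 8.83% in the dorsal ones. That class holds genes that were members only through their ventral counts.

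The widest gap in class make-up lay within the dorsal side. Dorsal library 1 had 33.6% of its members' counts in eef1 (95% interval 31.9% to 35.2%) and dorsal library 2 had 41.4%. Without eef1a1l1, the eef1 share was 19.6% and 18.1% ventral against 15.1% and 16.5% dorsal. Across the 35 tested members, log2 scaled CPM plus 10 correlated at a Pearson r of 0.946 between the ventral libraries, 0.885 between the dorsal ones and 0.852 to 0.959 between libraries of different sides. The lowest values all involved dorsal library 2, and the points share library depth. Replicate libraries scattered beyond counting noise, at chi-square values of 1.52 (ventral pair) and 2.96 (dorsal pair) per degree of freedom. Without eef1a1l1 these were 1.38 and 1.56, beside 1.96 and 2.01 over the 1298 other tested genes with under 1000 summed counts.

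Paralogues were counted unequally in most of the 10 groups compared. Reads shared by near-identical copies cannot be traced, since multiply aligned reads were recorded as 0 throughout the table, so these shares are uncertain. EIF1 held 55.5% of the EIF1 and EIF1B counts in ventral (95% Clopper-Pearson interval 47.5% to 63.2%) and 53.1% in dorsal libraries (45.8% to 60.2%), which left the leading copy unresolved on both sides. Of eIF1A counts eif1axb held 91.0% and 89.6%, and of eIF5A counts eif5a held 69.3% and 67.5%, in ventral and dorsal. In the eIF4E group eif4e1c held 56.3% and 56.6% of the counts. Its share was 41.9% (27.0% to 57.9%) in ventral library 1 and 78.6% (59.0% to 91.7%) in ventral library 2. The ventral libraries thus differed beyond counting error there. Among the binding proteins EIF4EBP3 held 45.7% in ventral libraries (34.6% to 57.1%) and EIF4EBP2 38.3% (27.7% to 49.7%), so no copy led beyond counting error. In dorsal libraries EIF4EBP3 held 56.1% in library 1 and 12.5% in library 2, where EIF4EBP2 held 50%. EIF4G1 held 94.5% and 96.6% of its counts with EIF4G3, and EIF4B 87.0% and 91.5% of its counts with eif4ba. The larger EIF2S1 row held 78.4% and 75%, and the larger EIF3J row (ENSDARG00000012603) 58.6% and 67.9%. Ventral and dorsal intervals of the summed libraries overlapped in each of these groups.

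In the EIF4G2 group the intervals of the summed libraries did not overlap between the sides, and the group is described because of that. EIF4G2 encodes an eIF4G relative that lacks the site for the cap-binding protein and serves cap-independent initiation. The larger copy, ENSDARG00000057167, gave 21 and 23 ventral against 42 and 14 dorsal counts. The smaller, ENSDARG00000020377, gave 10 and 6 ventral against 1 and 2 dorsal counts. It passed the limit of 10 counts only through its 16 ventral counts, against 3 dorsal ones. The values below for this copy, intervals and fit included, are therefore drawn from the counts that made it a member. They describe this copy and are no support for a difference between the sides. Each ventral library had a higher share of the smaller copy than each dorsal library, at 32.3% and 20.7% against 2.33% and 12.5%. Summed, the smaller copy held 26.7% of ventral counts (16.1% to 39.7%) and 5.08% of dorsal counts (1.06% to 14.1%). Summing adds libraries that scatter beyond counting noise, and the intervals of single libraries overlapped, at 7.99% to 39.7% in ventral library 2 and 1.55% to 38.3% in dorsal library 2. The smaller copy stood at 116.7 and 94.7 ventral against 10.2 and 53.7 dorsal CPM. Summed counts over summed library sizes were 4.84 times as high in ventral (counting interval 1.38 to 25.9). That ratio rested on dorsal library 1, since it was 10.5 (1.63 to 441) against dorsal library 1 alone and 2.0 (0.470 to 17.9) against dorsal library 2 alone. The smaller copy was too scarce for the main test, and in edgeR's fit without a filter its log2 fold was 2.15 ± 0.89 (SE), with an unadjusted p of 0.0154 and an adjusted p of 0.698. In that fit it was the 1 member of 52 with a higher ventral level at an unadjusted p under 0.05, against 3.48% of all genes. The larger copy stood at 245 and 363 ventral against 429 and 376 dorsal CPM, with a log2 fold of -0.44 ± 0.33 (SE; edgeR adjusted p = 0.732).

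**Figure D5:**
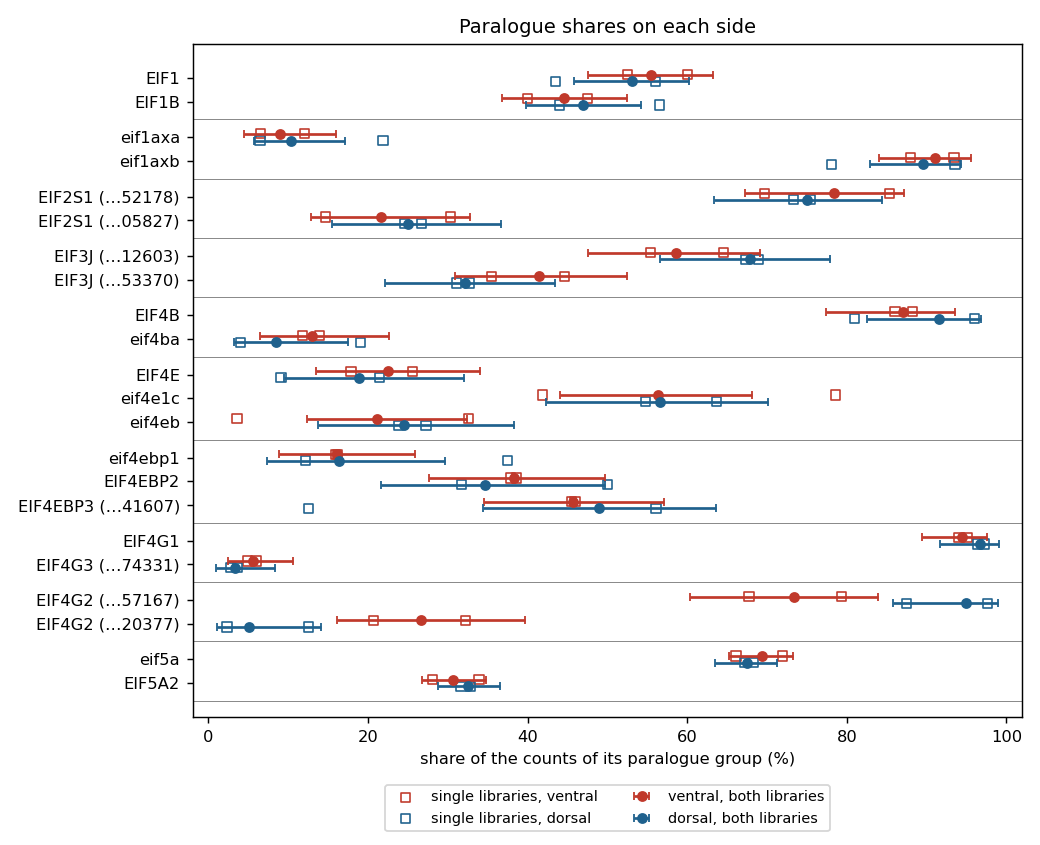
Share of each gene in the counts of its paralogue group, in percent, with filled points for the 2 libraries of a side summed, lines for 95% Clopper-Pearson intervals and open squares for single libraries. Ventral and dorsal intervals of the summed libraries overlap in every group except EIF4G2, where the smaller copy holds 26.7% in ventral and 5.08% in dorsal libraries. That copy was a member only through its ventral counts, and its intervals in ventral library 2 and dorsal library 2 overlap.

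Other genes of translation were not called either. Of 39 listed symbols for termination, poly(A) binding and regulation, 12 genes were tested, 0 were called and 8 had a log2 fold below 0. The median of these 12 was -0.064. Over all tested genes 0.429% were called higher, 0.0% were called lower and 53.9% lay below 0. Beside such shares, the absence of called genes says little, here and for the synthetases below. The poly(A)-binding protein gene pabpc1a, the most abundant of the 12, gave 410 and 271 ventral against 458 and 216 dorsal counts. Its log2 fold was -0.20 ± 0.18 (SE; edgeR adjusted p = 0.794). PABPN1, which binds poly(A) in the nucleus, had the smallest p, at 0.83 ± 0.34 (SE; edgeR adjusted p = 0.346), with 43 and 26 ventral against 29 and 7 dorsal counts. ABCE1, which splits ribosomes after termination, stood at -0.58 ± 0.27 (SE; edgeR adjusted p = 0.455). Of 42 listed symbols for aminoacyl-tRNA synthetases and their partners, which load tRNAs with amino acids, 7 genes were tested, 0 were called and 5 were below 0. EPRS1, the glutamate and proline enzyme, had the smallest p of these, with 4 and 5 ventral against 18 and 7 dorsal counts. Its log2 fold was -1.58 ± 0.59 (SE; edgeR adjusted p = 0.308). EPRS1 and IARS1 met the filter only with their dorsal counts, and NARS1 and VARS1 only with their ventral ones. The directions in this list are therefore no support for a difference between the sides.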

How the data were processed

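The deposited table holds raw counts for Ensembl genes and ERCC spike-ins. TRIzol RNA with spike-ins went into CEL-Seq, per the labels' protocols, and the primers carried a barcode and a molecular identifier. The submitters' processing notes name CASAVA 1.8, Bowtie2 2.1.0, HTSeq 0.5.4p3 and the build Zv9, with no role or order. The sources do not say if counts are of reads or identifiers. The maximum of 1024 points to identifiers. The 5 rows that name no gene held 96.4% to 97.4% of the column totals and were left out, as were the 92 spike-in rows.

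A table of Ensembl symbols named 20769 of 32434 genes. The aligner's and counter's settings, strand included, are not given in the sources used here. edgeR 4.0.16 in R 4.3.3 was run with its filter, TMM and the quasi-likelihood F test, without a block. Standard errors are the log2 fold divided by the square root of F. DESeq2 1.42.0 and limma voom 3.58.1 were alternatives. Counting intervals used scipy 1.17.1 and condition on the summed counts. The fit was tested on simulated data.

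The members, lists, tests and alternatives were chosen with earlier results of these data known. Named by rule are the member with the most counts of each subclass, paralogue groups with at least 10 counts per gene, and the 6 members per direction with the smallest p. Further members are named outside this rule, among them EIF3K and EIF4H.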

Additional observations from a re-analysis of the deposited data

How the results depend on the processing

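No translation factor gene was called, higher or lower, under any of the 13 alternatives, and the lowest adjusted p of a member was 0.143. Over all 1399 tested genes, edgeR called 6 genes higher and 0 lower. It called 14 of 1399 higher with gene totals alone, and 43 of 12123 higher and 4 lower without a filter. It called 18 of 1390 higher without genes at the ceiling, and 21 of 1399 higher and 1 lower after correction for repeated identifiers. With spike-in library sizes, DESeq2 or limma voom 0 were higher. At such small shares of all genes, the absence of called members in these settings says little about the set. Leaving out 1 library gave 9 to 87 higher and 7 to 14 lower, and the lone library left on a side was assumed to vary like the other side. The log2 ratio of summed counts moved from -0.10 to 0.19 with spike-in sizes and lay at -0.18 to 0.028 over the left-out libraries. It was -0.077 without eef1a1l1, an alternative chosen after seeing the data. For the 28 members named by rule that were tested, 335 of 364 values moved by less than 1 SE and 20 changed sign, 5 of them with spike-in sizes. The cause of these moves was not tested. The spike-in sizes moved the median log2 fold of all genes from -0.033 to 0.22, and the most abundant spike-ins lie near the ceiling. The labels give no shared replicate numbers, but titles carry neighbouring sample numbers across the sides. With those neighbours as a replicate block, an alternative chosen after seeing the data, edgeR called 10 genes higher and 0 lower, no member, and the lowest adjusted p of a member was 0.531, that of eif3ea. The neighbours' deviations from the side means correlated at -0.025 over 1399 genes, so the numbers were not taken as pairs. Depth limits the 17 members with 10 to 28 counts, for which a 2-fold change in at least 1 direction was not resolvable.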
